A study of Mus musculus with 7 samples.

Results

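The genes described here belong to the integrated stress response and the unfolded protein response of the endoplasmic reticulum (ER), measured in whole retina of C57BL/6 wild-type mice collected 2 days after crush of the optic nerve. Members were the rows of the deposited count table whose name was among 34 listed symbols. Of these, 33 had a row under their own name among the 25655 genes of the table, and all 33 were abundant enough to be tested. The remaining symbol, Ddit3, appeared only as 2 numbered rows and is described apart.

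The retinas of interest had received an AAV2 vector for overexpression of Tppp3, a gene of a tubulin polymerization-promoting protein, and the control retinas an AAV2 control vector with a CMV promoter. AAV2 is an adeno-associated virus often used to reach retinal ganglion cells, and the promoter of the Tppp3 vector, the injection time and the age of the mice were not given in the sources used here. The comparison asked which transcripts differ in the injured retina when Tppp3 is overexpressed. It rested on 3 Tppp3 AAV2 libraries and 3 control AAV2 libraries, and every retina was injured, so no uninjured level was available for any gene. The labels do not state that each library came from another animal, so p-values measure the spread between these libraries only. Tppp3 was higher in every Tppp3 AAV2 library than in any control library, at 44.0 ± 8.81 CPM with Tppp3 AAV2 and 23.0 ± 4.68 CPM in the controls (SD, n = 3 each). Its call depended on the tool: the log2 ratio of 0.94 had an adjusted p of 0.639 in edgeR's quasi-likelihood test and of 2.1e-05 in DESeq2's Wald test. CPM here denotes counts scaled by TMM to a common library size.

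Kinases that phosphorylate the translation factor eIF2 slow protein synthesis while they favour translation of the transcription factor ATF4, whose targets supply amino acids, one-carbon units and feedback. In the ER, the sensors ATF6, IRE1 (the product of Ern1) and PERK (the product of Eif2ak3) respond to unfolded proteins, and ATF6 and spliced XBP1 raise chaperones and degradation factors. Axon injury is known to engage ATF4 and CHOP, the product of Ddit3, in retinal ganglion cells of mice. ATF4 is controlled mainly at translation and XBP1 by splicing, and gene counts show neither step.

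No member passed an adjusted p of 0.05 in either direction in edgeR's quasi-likelihood test over all genes. Over the 14750 genes tested, 0.0136% passed, 2 genes in all, both lower with Tppp3 AAV2. DESeq2's Wald test and limma's voom also called 0 members. At an unadjusted p under 0.05 the edgeR test placed 3 members higher (Xbp1, Vldlr and Hspa5) and 1 lower (Psat1), where 7.23% of all tested genes lay under that threshold, 3.67% higher and 3.55% lower. In 2 members, Xbp1 and Vldlr, every Tppp3 AAV2 library was above every control library, and in 0 members was it below. Over all tested genes the groups failed to overlap in 13.9%, with 6.92% higher and 7.02% lower. With 33 members, counts this small are not read as a result about the set. All log2 fold changes of members lay between -0.25 and 0.32, with a median of 0.037, against a median of 0.0030 over all tested genes. In whole retina, fewer cells of a type and less RNA per cell cannot be told apart, and a change confined to ganglion cells would be mixed with the transcripts of all other cells.

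**Figure D1:**
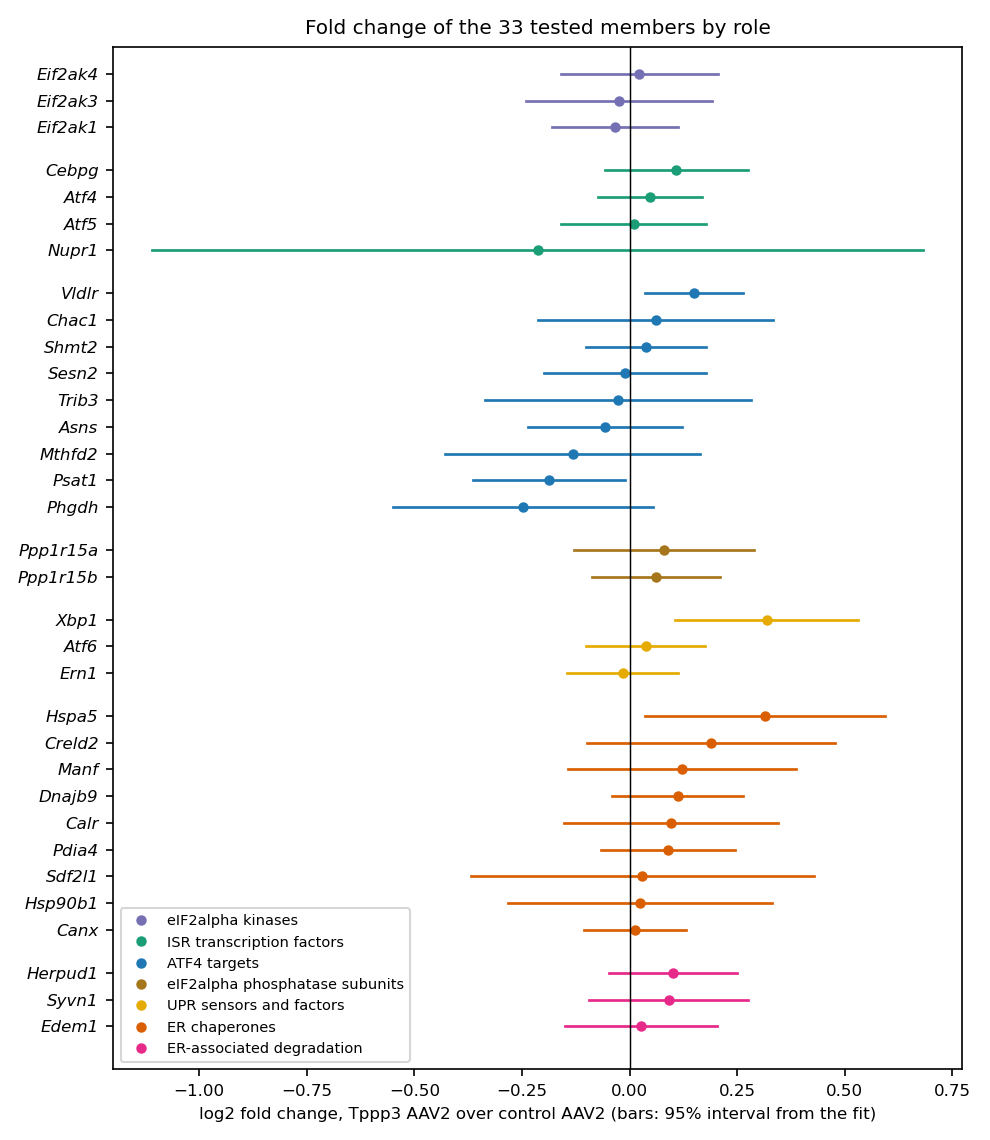
Log2 fold change, Tppp3 AAV2 over control AAV2, of the 33 tested members (points) with its 95% interval from edgeR's fit (bars), grouped by role. The intervals of Xbp1, Hspa5, Vldlr and Psat1 exclude 0 before any adjustment for multiple tests, and all ER chaperones have points above 0.

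Promoters of 5 members are shown because each holds a known element of its class, although other members of both classes had no match. Each is the run of 250 bases before the annotated start of transcription, 5′ to 3′ on the strand of the gene, from RefSeq on GRCm38.p6, a build other than that of the counts. Capitals mark the fixed letters of a match, which read as the reverse complement where the match is on the other strand. The ER stress element (ERSE, CCAAT and CCACG with 9 bases between them, bound by ATF6 with NF-Y) is seen in the chaperone genes Hspa5 (chr2:34771840-34772089, plus strand) and Hsp90b1 (chr10:86705445-86705694, minus strand). The C/EBP-ATF response element (CARE, TGATGNAA, bound by ATF4 with C/EBP partners) is seen in Asns (chr6:7693210-7693459, minus strand), Chac1 (chr2:119350992-119351241, plus strand) and Vldlr (chr19:27216770-27217019, plus strand).
Hspa5: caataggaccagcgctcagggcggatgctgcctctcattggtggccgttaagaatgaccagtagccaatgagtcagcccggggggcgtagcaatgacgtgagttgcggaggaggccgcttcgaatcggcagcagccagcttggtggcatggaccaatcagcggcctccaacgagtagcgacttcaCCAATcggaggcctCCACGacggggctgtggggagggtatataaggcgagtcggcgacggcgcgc
Hsp90b1: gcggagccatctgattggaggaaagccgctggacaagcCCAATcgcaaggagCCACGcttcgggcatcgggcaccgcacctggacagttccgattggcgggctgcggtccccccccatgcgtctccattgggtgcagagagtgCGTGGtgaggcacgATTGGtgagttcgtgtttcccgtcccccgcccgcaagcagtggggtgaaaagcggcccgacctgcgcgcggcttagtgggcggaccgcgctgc
Asns: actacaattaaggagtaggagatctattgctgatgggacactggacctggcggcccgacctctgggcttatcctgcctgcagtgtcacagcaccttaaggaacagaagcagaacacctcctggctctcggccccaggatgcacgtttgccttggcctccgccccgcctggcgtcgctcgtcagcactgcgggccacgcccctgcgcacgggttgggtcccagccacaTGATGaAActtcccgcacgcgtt
Chac1: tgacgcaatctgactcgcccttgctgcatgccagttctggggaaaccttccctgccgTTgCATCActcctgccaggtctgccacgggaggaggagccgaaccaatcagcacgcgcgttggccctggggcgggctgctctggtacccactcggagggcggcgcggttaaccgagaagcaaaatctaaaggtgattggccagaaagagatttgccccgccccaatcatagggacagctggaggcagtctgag
Vldlr: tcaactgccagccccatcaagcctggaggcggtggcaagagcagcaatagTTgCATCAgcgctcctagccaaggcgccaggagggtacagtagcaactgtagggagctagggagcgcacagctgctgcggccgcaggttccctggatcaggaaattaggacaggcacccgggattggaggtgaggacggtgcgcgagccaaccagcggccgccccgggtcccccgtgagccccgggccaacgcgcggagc

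Both strands were searched in the 300-base windows of the RefSeq table, which run from 250 bases before to 50 bases after the start, and 31 of the 34 members had at least 1 window. ERSE was found in 5 of the 8 chaperone windows (Hspa5, Hsp90b1 with 2 matches, Calr, Canx and Creld2), in 0 of the 11 windows of ATF4 targets, and in 0.119% of all 32851 windows. CARE was found in 4 of the 11 windows of ATF4 targets (Asns, Chac1, Trib3 and Vldlr). It was in 0 of the 8 chaperone windows and in 3.97% of all windows. Vldlr had a further window, at another annotated start, that held no CARE, and the match in Trib3 lay after the start. Outside these classes, Syvn1 held ERSE, and Herpud1 and Nupr1 held CARE. The shorter XBP1 element TGACGTGG was in 0 of the 35 member windows and in 0.676% of all windows. A match describes letters only. Among the 6 genes with ERSE, the log2 fold change was 0.013 in Canx, 0.024 in Hsp90b1, 0.091 in Syvn1, 0.095 in Calr, 0.19 in Creld2 and 0.31 in Hspa5, and the differences between these genes were not tested.

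The 3 member kinases that sense stress differed little between the groups. A further kinase gene, Eif2ak2, was not a member and is described under other observations. Eif2ak3, the gene of the ER kinase PERK, averaged 58.2 ± 2.84 CPM with Tppp3 AAV2 and 59.3 ± 8.86 CPM in the controls (SD, n = 3 each), with a log2 fold change of -0.025 and a 95% interval of -0.24 to 0.19. Eif2ak1, the gene of the heme-regulated kinase, stood at -0.033 (-0.18 to 0.11), and Eif2ak4, the gene of the amino acid sensor GCN2, at 0.023 (-0.16 to 0.21). The groups overlapped for all 3. The phosphatase subunits that reverse eIF2 phosphorylation were positive in fold change, at 0.080 for the inducible Ppp1r15a and 0.062 for the constitutive Ppp1r15b, and neither passed the test.

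Atf4 transcripts were abundant and steady. Tppp3 AAV2 replicates 1, 2 and 3 held 264, 266 and 237 CPM, and control replicates 1, 2 and 3 held 250.1, 251 and 240.5 CPM. The groups overlapped, since Tppp3 AAV2 replicate 3 was the lowest of the 6 libraries. The difference came to 0.048 ± 0.055 (SE) on the log2 scale (edgeR, adjusted p = 0.887). Per kilobase of merged exons (GENCODE M21), Atf4 stood at 107 CPM over the 6 libraries. On the same scale the chaperone genes Hsp90b1 and Canx were close, at 123 and 90.6. Every ATF4 target among the members was lower than Atf4, while Ddit4, an ATF4 target of the wider lists, stood at 111. Among the partner factors, Atf5 had a log2 fold change of 0.0096 and Cebpg, whose product pairs with ATF4, of 0.11. Nupr1, the gene of a small stress-induced chromatin protein, had the largest coefficient of variation of all members over the 6 libraries, 33.9%. It held 10.9, 13.5 and 7.40 CPM with Tppp3 AAV2 and 8.39, 10.6 and 18.2 CPM in the controls, and its fold change had an interval of -1.11 to 0.68.

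Ddit3 encodes CHOP, a transcription factor downstream of ATF4 that favours cell death under lasting stress. The table gives 2 rows, Ddit3_1 and Ddit3_2, and GENCODE M21 likewise lists a pair of overlapping genes under that name. Every count fell in Ddit3_1, and Ddit3_2 was at 0 in all 6 libraries. How reads that both gene models share were assigned is not known, so the level is uncertain. Ddit3_1 held 60.7, 55.7 and 62.5 CPM in Tppp3 AAV2 replicates 1, 2 and 3, and 63.9, 55.2 and 54.5 CPM in control replicates 1, 2 and 3. The highest library was a control, and the groups overlapped (log2 fold change 0.044 ± 0.076 SE, edgeR adjusted p = 0.932).

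The targets of ATF4 had fold changes of both signs. Of 9 targets, 3 had a positive and 6 a negative fold change, with a median of -0.027, where 50.9% of all tested genes were positive. Without control replicate 2, 5 of the 9 were positive and the median was 0.020. Chac1, which encodes a glutathione-degrading enzyme, held 11.9, 10.7 and 13.5 CPM with Tppp3 AAV2 and 11.5, 10.9 and 12.3 CPM in the controls. Trib3, which encodes a pseudokinase that restrains ATF4 signalling, held 8.18, 8.29 and 8.35 CPM with Tppp3 AAV2 and 8.57, 9.40 and 7.23 CPM in the controls. For both genes the control range and the Tppp3 AAV2 range overlapped, and the fold changes were 0.060 (-0.21 to 0.33) and -0.027 (-0.34 to 0.28). Asns, the gene of asparagine synthetase, held 41.6, 42.5 and 46.5 CPM with Tppp3 AAV2 and 40.5, 46.7 and 48.8 CPM in the controls, again with overlap (log2 fold change -0.058 ± 0.081 SE, edgeR adjusted p = 0.915). Sesn2, the gene of a stress-induced inhibitor of mTORC1 signalling, stood at -0.010.

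The serine and one-carbon enzymes among the targets had mostly negative fold changes. Psat1, the second enzyme of serine synthesis, held 48.9, 46.0 and 50.4 CPM with Tppp3 AAV2 and 48.6, 57.3 and 59.3 CPM in the controls. Control replicate 1 lay within the Tppp3 AAV2 range, and the other control libraries lay above it. The log2 fold change was -0.19 ± 0.080 (SE), with an unadjusted p of 0.0397 and an adjusted p of 0.682 in edgeR's test. Phgdh, the first enzyme of that pathway, held 23.3, 17.9 and 23.6 CPM with Tppp3 AAV2 and 29.95, 22.9 and 24.1 CPM in the controls, and the groups overlapped (log2 fold change -0.25, edgeR adjusted p = 0.756). The mitochondrial folate enzyme genes Mthfd2 and Shmt2 stood at -0.13 and 0.038, with adjusted p of 0.876 and 0.929.

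Vldlr was the target with every Tppp3 AAV2 library above every control. It encodes the very low density lipoprotein receptor, which is induced through ATF4 in mouse liver and whose loss leads to abnormal vessel growth in the mouse retina. Tppp3 AAV2 replicates 1, 2 and 3 held 418, 379 and 402 CPM, and control replicates 1, 2 and 3 held 368, 358 and 354 CPM. The log2 fold change was 0.15 ± 0.052 (SE), a ratio of 1.11, with an unadjusted p of 0.0143 and an adjusted p of 0.648 in edgeR's test. The two-sided exact permutation test over the 6 libraries gave p = 0.1, the smallest that 3 against 3 libraries allow. The log2 fold change of Vldlr ranged from 0.11 to 0.19 over the other settings tried.

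**Figure D2:**
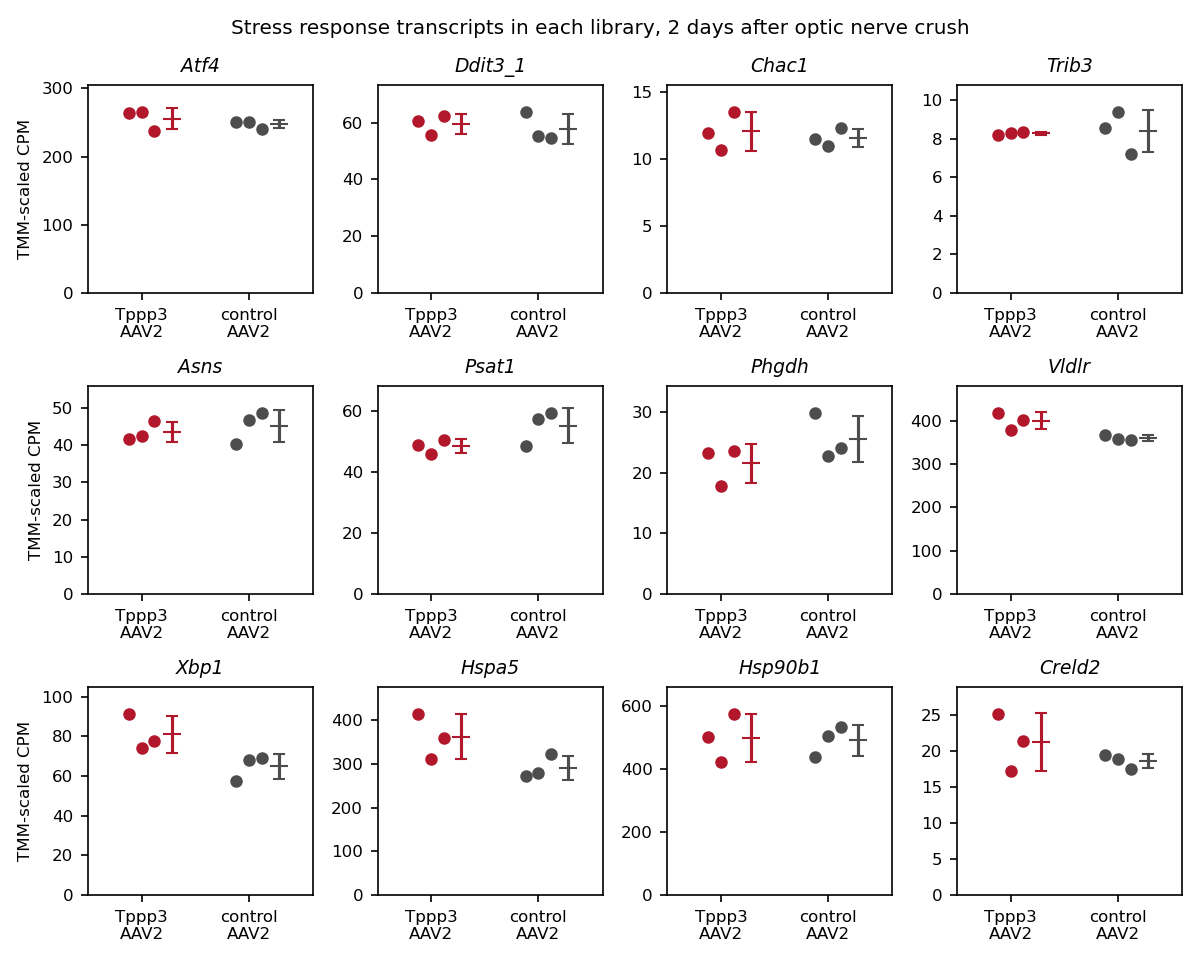
TMM-scaled CPM of 12 stress response transcripts in each library, with Tppp3 AAV2 at left and control AAV2 at right of each panel (points: replicates 1 to 3, left to right; bars: mean ± SD). Xbp1 and Vldlr are higher in every Tppp3 AAV2 library than in any control library, Psat1 is higher in 2 of the 3 controls than in any Tppp3 AAV2 library, and the other panels show overlapping groups.

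Among the sensors and factors of the ER response, Xbp1 had the smallest p of all members. It encodes the transcription factor that IRE1 activates by splicing its mRNA, and the counts do not separate the spliced from the unspliced form. Tppp3 AAV2 replicates 1, 2 and 3 held 91.5, 74.2 and 77.6 CPM, and control replicates 1, 2 and 3 held 57.7, 68.1 and 69.0 CPM. Every Tppp3 AAV2 library was above every control. The log2 fold change was 0.32 ± 0.094 (SE), or 1.25-fold, with an unadjusted p of 0.00772 and an adjusted p of 0.639 in edgeR's test, where 171 was its rank by p among all genes. The exact permutation test gave p = 0.1, again the smallest possible. Over the other settings tried, the log2 fold change of Xbp1 ranged from 0.22 to 0.38, and both ends came from leaving out single libraries. Atf6 and Ern1, which encode the sensors themselves, stood at 0.037 (-0.10 to 0.17) and -0.016 (-0.14 to 0.11).

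All 9 ER chaperone genes had a positive fold change, most of them small, and none passed the test. The median was 0.095 and the range 0.013 to 0.31. Hspa5 encodes BiP, the main chaperone of the ER and the regulator that holds its sensors inactive. It held 414, 311 and 359 CPM in Tppp3 AAV2 replicates 1, 2 and 3, and 271, 279 and 322 CPM in control replicates 1, 2 and 3. Tppp3 AAV2 replicate 2 lay below control replicate 3, and the other libraries were ordered by group. The log2 fold change was 0.31 ± 0.12 (SE), or 1.24-fold, with an unadjusted p of 0.0319 and an adjusted p of 0.673 in edgeR's test, and the exact permutation test gave p = 0.2. Its log2 fold change was 0.20 without Tppp3 AAV2 replicate 1 and 0.41 without Tppp3 AAV2 replicate 2. The list median came to 0.033, with 6 of the 9 genes positive, when control replicate 1 was left out and to 0.15 without control replicate 3, and to 0.046 and 0.14 without Tppp3 AAV2 replicate 1 or 2.

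The other chaperone genes overlapped between groups. Hsp90b1, the gene of the ER chaperone GRP94, held 499.9, 423 and 575 CPM with Tppp3 AAV2 and 437, 503 and 533 CPM in the controls, so that its lowest and its highest library both carried Tppp3 AAV2 (log2 fold change 0.024, -0.28 to 0.33). The lectin chaperone genes Calr and Canx stood at 0.095 and 0.013. The disulfide isomerase gene Pdia4 stood at 0.089 and Dnajb9, whose product is a cochaperone of BiP, at 0.11. Creld2, Manf and Sdf2l1, which encode ER-resident or secreted proteins that rise under ER stress, stood at 0.19, 0.12 and 0.030. Over the 9 genes, edgeR's adjusted p ran from 0.673 to 0.985. The genes of ER-associated degradation were positive too. Herpud1, a membrane component of the degradation complex, stood at 0.10, Syvn1, the gene of the ubiquitin ligase HRD1, at 0.091 and Edem1, which encodes a mannosidase-like lectin, at 0.026, with adjusted p of 0.795 to 0.967.

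ATF4 targets and ER chaperones were then set side by side in each library, as the mean log2 CPM of the 9 genes of each list relative to the mean of the 6 libraries. The chaperone level in Tppp3 AAV2 replicates 1, 2 and 3 was 0.16, -0.10 and 0.099, against -0.15, -0.048 and 0.041 for control replicates 1, 2 and 3. For ATF4 targets the level was 0.0013, -0.12 and 0.056 with Tppp3 AAV2, against -0.022, 0.059 and 0.029 in the controls, in the same order. The groups overlapped for both lists. Chaperones were above their 6-library mean in 7, 1 and 8 of the 9 genes with Tppp3 AAV2, and in 0, 4 and 6 of the 9 genes in the controls.

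ATF4 targets minus ER chaperones came to -0.16, -0.020 and -0.043 in Tppp3 AAV2 replicates 1, 2 and 3, and to 0.13, 0.11 and -0.012 in control replicates 1, 2 and 3. Every Tppp3 AAV2 library lay below every control, but Tppp3 AAV2 replicate 2 and control replicate 3 nearly met. The mean difference between the groups was -0.15 on the log2 scale, with an SD of 0.077 in each group. It is a description with no test, since the genes were chosen with earlier results of these data known.

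**Figure D3:**
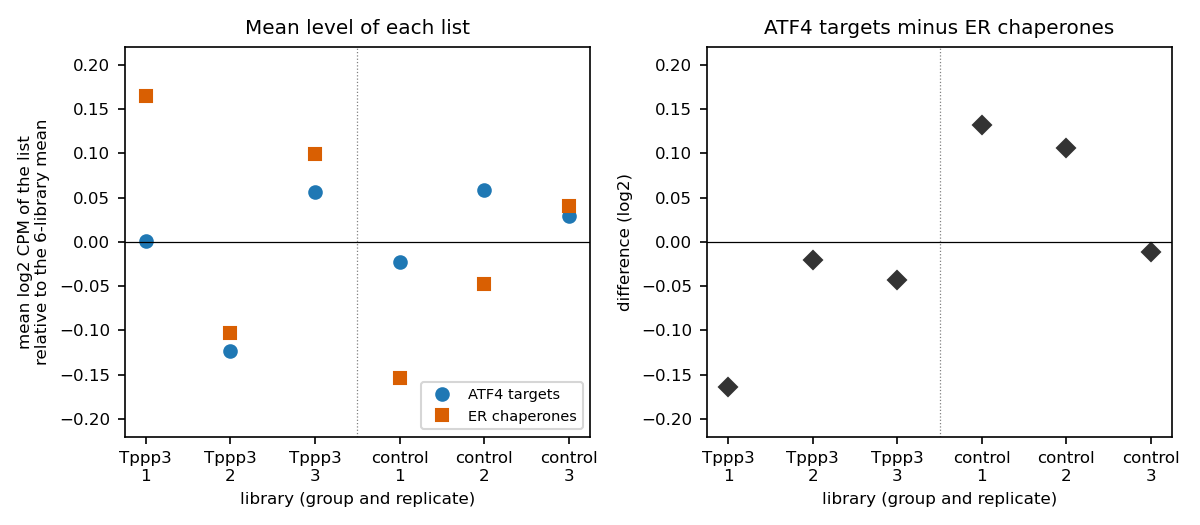
Left, mean log2 CPM of ATF4 targets (circles, 9 genes) and ER chaperones (squares, 9 genes) in each library relative to the mean of the 6 libraries; right, the first minus the second. Tppp3 AAV2 libraries are left of the dotted line and control libraries right of it, and the difference is lowest in Tppp3 AAV2 replicate 1 at -0.16 and highest in control replicate 1 at 0.13.

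Libraries also differed in ways other than the vector. Every Tppp3 AAV2 library was deeper than every control library, over a range of 10961443 to 21843892 counts. Y-linked transcripts (4 genes) summed to 223 CPM in Tppp3 AAV2 replicate 2 and 235 CPM in control replicate 1, and to at most 2.13 CPM in the other 4 libraries. These 2 libraries also had the lowest chaperone levels of their groups. Within the libraries low in Y-linked transcripts (2 per group), chaperones were 0.14 higher with Tppp3 AAV2 and ATF4 targets minus chaperones differed by -0.15. Between the single libraries high in Y-linked transcripts, chaperones were 0.051 higher with Tppp3 AAV2 and the difference was -0.15, with no spread to set either value against. Each group held 1 library high in Y-linked transcripts, so a covariate for sex could move the fold changes only little. With it, Xbp1 and Hspa5 stood at 0.32 and 0.31, and the part of sex was not tested beyond these splits. Log2 ratios of mean CPM in the libraries low and high in Y-linked transcripts were 0.30 and 0.36 for Xbp1, 0.36 and 0.20 for Hspa5, 0.20 and 0.041 for Vldlr, and -0.23 and -0.080 for Psat1.

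All 8 listed markers of retinal ganglion cells and all 6 of Müller glia, both cell types of the labelled tissue, passed the low-count filter. The median over the 8 ganglion cell genes was 0.0051 on the log2 scale, Tppp3 AAV2 over control, with 4 positive and 4 negative. In 1 of the 8, Pou4f1, every Tppp3 AAV2 library was below every control, as in 7.02% of all tested genes. Its means were 14.6 CPM with Tppp3 AAV2 and 16.4 CPM in the controls (log2 fold change -0.17, edgeR adjusted p = 0.767). Markers of pigment epithelium and pigment cells had 10 of 12 genes above the low-count filter. They summed to 242, 61.4 and 229 CPM in Tppp3 AAV2 replicates 1, 2 and 3, and to 228, 49.5 and 48.4 CPM in control replicates 1, 2 and 3, and 1 of the 10, Slc45a2, was at 0 in a control library. All 6 Müller glia markers had a positive fold change, with a median of 0.19, and summed to 4639 to 5502 CPM with Tppp3 AAV2 and 4177 to 5021 CPM in the controls. All 8 rod photoreceptor markers and all 5 blood markers had a negative fold change, with medians of -0.063 and -0.091. Lens markers (6 genes) summed to 25.5, 2.57 and 5.12 CPM in Tppp3 AAV2 replicates 1, 2 and 3. In control replicates 1, 2 and 3 they summed to 4.95, 7.06 and 2.17 CPM. Tppp3 AAV2 replicate 1 had the highest lens sum and the highest chaperone level. Among the controls, replicate 3 had the lowest lens sum and the highest chaperone level. Microglia markers (8 genes) summed to 122 to 223 CPM with Tppp3 AAV2 and 132 to 209 CPM in the controls. With the pigment marker level as a covariate, the chaperone median was 0.097 and Xbp1, Hspa5 and Vldlr stood at 0.35, 0.30 and 0.11. Other genes moved more in that setting. Nupr1 changed sign, from -0.21 to 0.19. Creld2 stood at 0.053 rather than 0.19, Cebpg at 0.19 rather than 0.11 and Ddit3_1 at -0.053 rather than 0.044. Phgdh had the smallest adjusted p of the members in that setting, 0.402 in edgeR's test. Its log2 fold change ranged from -0.44 to -0.13 over the other settings tried. The part of the other cell types in these values was not tested.

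The wider pathway was covered by 99 further genes in 4 lists, of which 98 had a row and 97 were tested. None passed an adjusted p of 0.05 in edgeR's test in either direction, and DESeq2's Wald test and limma's voom called none of them either. Of the 97, 4 higher and 7 lower lay under an unadjusted p of 0.05 in edgeR's test. Over all tested genes these shares were 3.67% higher and 3.55% lower. The groups did not overlap in 8 higher and 11 lower of the 97, against 6.92% and 7.02% over all tested genes. Among 35 other ATF4 targets, 11 had a positive fold change, with a median of -0.044. Aldh1l2, a mitochondrial folate dehydrogenase, held 13.3, 12.4 and 12.01 CPM with Tppp3 AAV2 and 15.5, 15.5 and 16.3 CPM in the controls, with no overlap (log2 fold change -0.33, edgeR unadjusted p = 0.00735, adjusted p = 0.639). Slc7a11, the cystine transporter gene, went the other way, with 13.7, 11.8 and 14.2 CPM with Tppp3 AAV2 and 11.1, 5.71 and 9.03 CPM in the controls (log2 fold change 0.63, edgeR unadjusted p = 0.0170, adjusted p = 0.648). The leucyl-tRNA synthetase gene Lars stood at -0.19 (adjusted p = 0.639).

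Other folding genes of the ER did not share the sign of the listed chaperones. Of 22 genes, 10 had a positive fold change, and the median was -0.0080. Dnajc3, which encodes the BiP cochaperone p58IPK, held 64.4, 58.8 and 63.6 CPM with Tppp3 AAV2 and 53.6, 53.8 and 52.3 CPM in the controls, with no overlap (log2 fold change 0.23 ± 0.061 SE, edgeR unadjusted p = 0.00327, adjusted p = 0.639). The ER oxidase gene Ero1a stood at 0.25, whereas Sil1, the gene of a nucleotide exchange factor of BiP, stood at -0.20 (adjusted p = 0.682 and 0.675). Among 25 other genes of degradation and ER signalling, 11 were positive, with a median of -0.020. Crebrf held 87.7, 85.5 and 83.6 CPM with Tppp3 AAV2 and 71.9, 74.7 and 77.6 CPM in the controls (log2 fold change 0.20, adjusted p = 0.639). Derl3, a degradation factor present at under 2 CPM in every library, stood at -0.89, and Sel1l, the partner of HRD1, at 0.11 (adjusted p = 0.673 and 0.688). The 15 other genes of the eIF2 pathway had a median of 0.0022. Eif2b5, a subunit of the exchange factor of eIF2, stood at -0.13, Gcn1, the activator of GCN2, at -0.092 and Qrich1, a transcription factor of the ER response, at 0.091, with adjusted p of 0.722, 0.751 and 0.754.

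**Figure D4:**
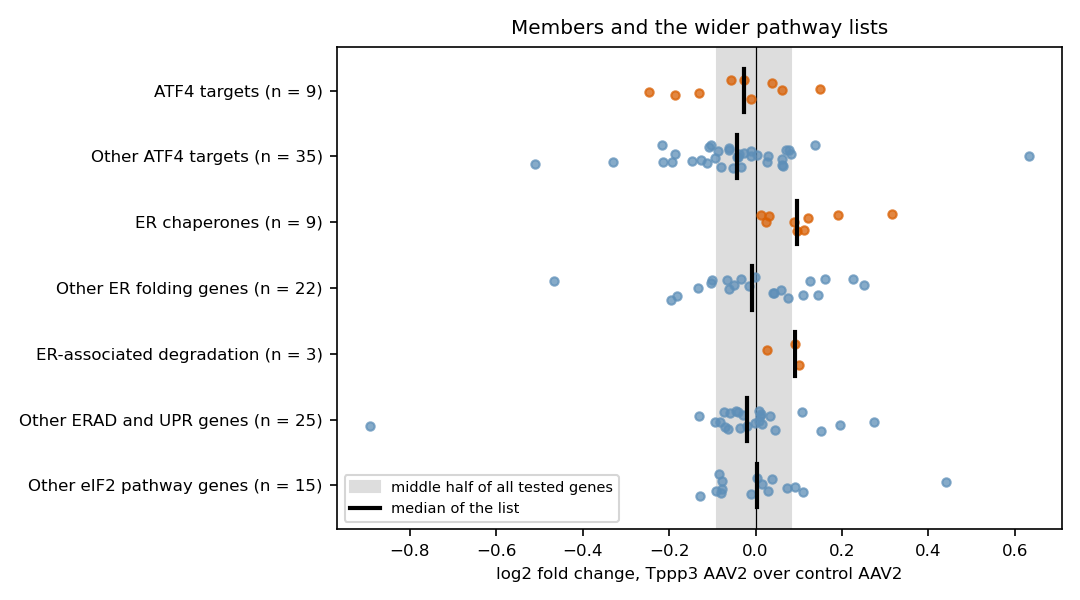
Log2 fold change, Tppp3 AAV2 over control AAV2, of each tested gene (points) in the member lists (orange) and the wider lists (blue), with the median of each list (black bar) and the interquartile range of all tested genes, -0.090 to 0.082 (grey). The 9 listed ER chaperones lie above 0 with a median of 0.095, while the 22 other ER folding genes spread to both sides with a median of -0.0080.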

How the data were processed

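Oligo(dT)-enriched RNA of whole retina was sequenced as paired reads, per the labels' protocols, which do not say whether strand was kept. Values are the authors' total counts for each gene, not normalized, per the file headers, and the submitters' processing notes name GRCm39 (mm39). Which aligner, counter and annotation were used is not given in the sources used here. The labels name 3 Tppp3 AAV2 and 4 control AAV2 samples, and the treatment protocol gives the reverse numbers. Groups follow the sample labels. Columns whose name matched a sample title gave 6 libraries. The fourth control sample is not analysed here. There was 1 further column, named as another Tppp3 library, which matched none of the sample labels and was not used; the columns thus follow the numbers of the protocol, not of the labels. All fits planned for 7 libraries were made on 6.

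Genes were filtered by edgeR's filterByExpr (14750 of 25655 tested), scaled by TMM and tested with the robust quasi-likelihood F test (two-sided). P-values were adjusted over all genes tested by the Benjamini-Hochberg method, at a threshold of 0.05. Intervals are 95% and use the degrees of freedom of the fit. Levels of lists used log2 CPM with a prior count of 2. The procedure was tested on simulated counts whose planted changes were all larger than that of any member. Changes of the size seen in members were not covered. Of the listed wider genes, 10 were matched through RefSeq synonyms. Members, lists and motifs were chosen with earlier results of these data known. All members were named, as were the 3 genes of smallest p in each wider list, and values in every library were given for members of unadjusted p under 0.05 and for Atf4, Ddit3, Asns, Chac1, Trib3, Hspa5, Xbp1 and Hsp90b1; those of Phgdh, Nupr1, Aldh1l2, Slc7a11, Dnajc3 and Crebrf were added after their values were seen. The tools were edgeR 4.0.16, DESeq2 1.42.0 and limma 3.58.1 under R 4.3.3, and matplotlib 3.10.9 for figures. Alternatives were other size factors, DESeq2, voom, other low-count filters, each library left out, a replicate block, thinning to equal depth and covariates for pigment markers and sex. Pairs of libraries within a group differed by far more than sampling noise, with chi-square statistics per gene of 4.05 to 13.8.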

Additional observations from a re-analysis of the deposited data

How the results depend on the processing

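Over 15 other settings, 0 members and 0 genes of the wider lists passed an adjusted p of 0.05 in either direction. The chaperone median stayed between 0.033 and 0.15, and that of ATF4 targets between -0.073 and 0.020, with a change of sign in 2 settings. The ATF4 target median minus the chaperone median was -0.12, in a range of -0.17 to -0.069. With single libraries left out, positive chaperones numbered 6 to 9 of 9, the fewest without control replicate 1, and positive ATF4 targets 2 to 5 of 9. Positive ATF4 targets were 5 with the pigment marker level as a covariate and 5 without control replicate 2; the cause was not tested. The adjusted p of Xbp1 ranged from 0.407 to 0.907, that of Hspa5 from 0.254 to 0.907, that of Vldlr from 0.407 to 0.907 and that of Psat1 from 0.488 to 0.999.

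Over all genes, edgeR called 0 higher and 2 lower. DESeq2's Wald test called 2 higher and 12 lower, limma's voom 0 and 1, no low-count filter 0 and 6, the pigment covariate 1 and 1, thinning to equal depth 0 and 1, and leaving out single libraries 0 to 2 higher and 0 to 1 lower. The sex covariate, added after the data were seen, called 0 and 0. With the replicate number as a block, 0 genes were higher and 1 lower, and 0 members passed. Deviations of libraries with the same number correlated at -0.029, 0.051 and -0.26, so the numbers were not taken to pair the samples, and control replicate 1 deviated most like Tppp3 replicate 3, at 0.26. The members with the lowest counts were Sdf2l1, at 72 to 182 in the 6 libraries, and Trib3, at 80 to 184, and the largest SE was that of Nupr1, at 0.36.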

Other observations

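The gamma subunit of eIF2, which the integrated stress response acts on through its alpha partner, has an X-linked and a Y-linked gene in mice. Eif2s3x held 279.5, 173 and 289 CPM in Tppp3 AAV2 replicates 1, 2 and 3, and 163, 281 and 288 CPM in control replicates 1, 2 and 3. Eif2s3y held 61.7 CPM in Tppp3 AAV2 replicate 2 and 69.1 CPM in control replicate 1, and at most 0.711 CPM in the other libraries. Each group thus held 1 library with a low level of the X-linked gene and a high level of the Y-linked gene.

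Chosen after its values were seen, Eif2ak2, the gene of the RNA-activated kinase PKR, which interferon induces, varied more between libraries than any member. It held 37.4, 19.2 and 8.30 CPM in Tppp3 AAV2 replicates 1, 2 and 3, and 12.1, 16.0 and 19.6 CPM in control replicates 1, 2 and 3. Its highest and its lowest library both carried Tppp3 AAV2, and it did not pass edgeR's test (log2 fold change 0.44, adjusted p = 0.923).

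Atf3, an injury-induced transcription factor and target of ATF4, also chosen after its values were seen, held 29.96, 33.7 and 25.4 CPM in Tppp3 AAV2 replicates 1, 2 and 3, and 23.7, 30.5 and 38.2 CPM in control replicates 1, 2 and 3. Both extremes were control libraries (log2 fold change -0.051, edgeR adjusted p = 0.975).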
